A study of Mus musculus with 15 samples.

Results

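Liver RNA was compared between 6 frail and 4 non-frail mice, 10 of the 15 mice of the study, all aged 22 months at the start of the experiment. A mouse was placed in the frail group when its label gave 3 or more positive frailty criteria of 6 (mice O2, O3, O4, O5, P4 and P5), and in the non-frail group when it gave 2 or fewer (O1, P1, P2 and P3). All mice were C57BL/6 females. The 5 mice named O received vehicle, corn oil, and the 5 mice named P received protectin DX (PDX), a lipid mediator made from docosahexaenoic acid, at 30 ng per g of body weight in corn oil, by gavage every day for 9 weeks by the labels or 8 weeks by the description of the series. The frail group held 4 vehicle and 2 PDX mice and the non-frail group 1 vehicle and 3 PDX mice, so treatment and frailty were partly confounded, and each comparison was made both without treatment in the model and with treatment as a covariate. The 5 Adult mice, 6 months old at the start and on vehicle, entered none of the main tests, only an alternative fit of all 15 mice, and are given as ranges beside the older mice. Each library came from the liver of 1 mouse.

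Frailty is a state of lowered reserve in which several bodily functions decline together, and in mice it is scored from signs of the body such as coat, gait and posture and from performance in walking, grip, endurance and voluntary running. The liver makes most plasma proteins, clears drugs and bile acids, stores and releases fuel, and houses resident macrophages and a fenestrated endothelium that take up material from the blood. With age it gathers lymphocytes and inflammatory macrophages, and its clearance functions decline.

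The criteria were 6: the score of a clinical frailty index, loss of body weight, walking speed on a rotating rod, grip force, distance on a treadmill and distance on a running wheel. A mouse was positive for a criterion when it passed a percentile cutoff that the study set on its own animals. Because they formed the groups, they are given without a test. The frailty index ran from 0.06 to 0.22 in the non-frail mice and from 0.11 to 0.56 in the frail mice, with medians of 0.18 and 0.23, and the ranges overlapped. The highest score, 0.56, was that of O5, which also had the lowest average weekly change in body weight, -3.55%, and the shortest distance on the wheel, 0.0399 km per day. The frail mouse O2 had the lowest index of its group, 0.11, had an average weekly change in body weight of 3.07%, and ran the shortest treadmill distance of the 10 mice, 33.9 m. Treadmill distance had medians of 46.4 m in the frail and 66.2 m in the non-frail mice, wheel running medians of 0.813 and 1.16 km per day, walking speed medians of 11 and 13 rpm, and grip force medians of 147 and 153 g. In each of these 4 measures the ranges of the groups overlapped. Mice just inside the threshold, with 3 criteria, were O2, O3 and P4, and those just outside it, with 2, were P2 and P3.

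The libraries of the groups were of like depth, and 2 frail mice stood apart from the other 8 in expression. Counted read pairs ran from 25480180 to 30139181 in the frail and from 26113995 to 29390647 in the non-frail mice (exact permutation test, two-sided, p = 0.810). The first principal component, 42.2% of the variance of log2 CPM (counts scaled to library size) over 15744 genes, gave O5 a score of 154, against -27.4 to -9.31 in the other 9 mice. The second, 24.7% of the variance, gave O2 a score of 105, against -47.8 to 18.1. Over the 10 mice neither component passed the threshold between the groups (exact permutation tests, p = 0.152 and 0.667, and 0.34 and 0.48 with mice exchanged only within a treatment, whose smallest possible values are 0.00952 and 0.02). With single mice left out, exact p ran from 0.0159 (without P4) to 0.667 on the first component. On the second component of the remaining mice it ran from 0.0476 (without O5) to 0.905. The second component without O5 is not the axis described above. The share of counts on the 10 most counted genes and the number of genes with at least 10 counts gave exact p of 0.410 and 0.419, and the Benjamini-Hochberg values over these 5 measures were between 0.698 and 0.810. Since O2 and O5 were both frail, results are also given without them.

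**Figure D1:**
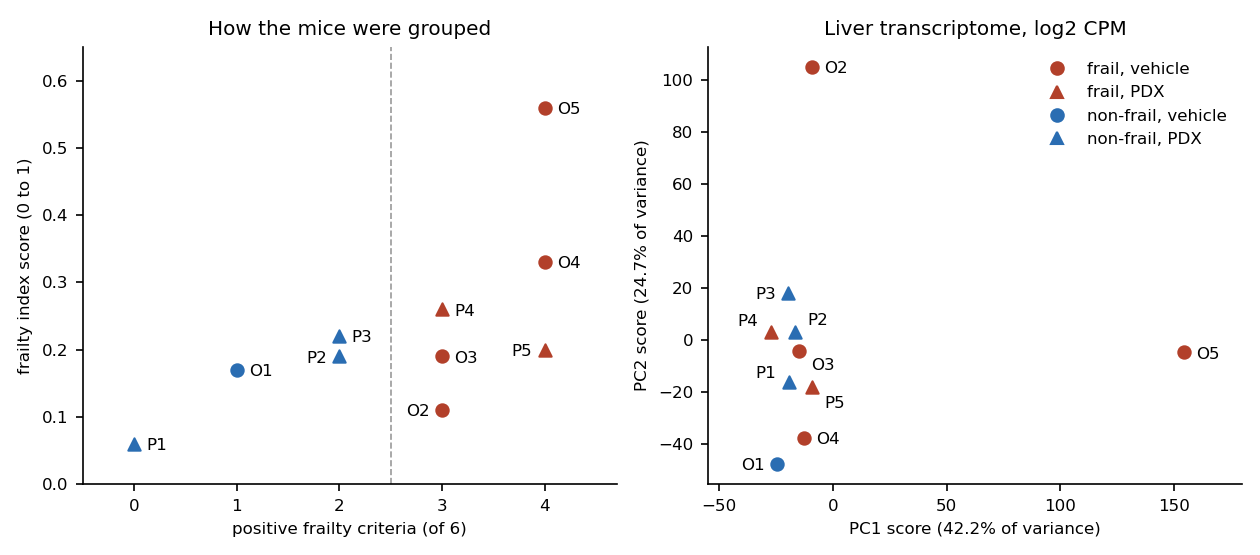
Left, clinical frailty index score (0 to 1, vertical axis) against number of positive criteria (horizontal axis) of the 10 mice, with a dashed line between 2 and 3 criteria, and right, scores of each mouse on the first (horizontal) and second (vertical) principal components of log2 CPM; red stands for frail and blue for non-frail, circles for vehicle and triangles for PDX. The index of the frail mice, 0.11 to 0.56, overlaps that of the non-frail mice, 0.06 to 0.22, and O5 and O2 lie far from the other 8 mice, at 154 on the first and 105 on the second component.

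No gene differed between frail and non-frail mice in the quasi-likelihood test of edgeR at an adjusted p under 0.05, among 15744 genes tested. Calls were 0 without a covariate (0% of genes, smallest adjusted p 0.867), 0 with treatment as a covariate (0%, smallest adjusted p 0.999) and 0 for the difference of the frailty effect between vehicle and PDX mice (smallest adjusted p 0.925). At an unadjusted p under 0.05, edgeR gave 534 genes without a covariate, 308 higher in frail mice (1.96%) and 226 lower (1.44%), or 3.39% of genes in both directions. This share depended on the mice in the fit. It was 6.89% in a fit of all 15 mice and 6.24% without O2 and O5. With single mice left out in turn, it ran from 1.51% (without P1) to 4.76% (without O4). Without O3, O4 and P5 it was 7.42% (927 higher and 247 lower). Adding treatment to the fit without O3, O4 and P5 lowered it to 1.02% (162 genes, 78 higher and 84 lower). In the main fit with treatment as a covariate, edgeR gave 204 genes, 88 higher (0.559%) and 116 lower (0.737%), and the interaction gave 276. The precision-weighted test of limma called 0 genes in both fits, with 422 and 199 at an unadjusted p under 0.05. The Wald test of DESeq2 called 4 genes without a covariate, with 761 at an unadjusted p under 0.05, and 0 genes with treatment in the model, with 295. Its p-values, like those of edgeR, weigh the group difference against the spread between individual mice.

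**Figure D2:**
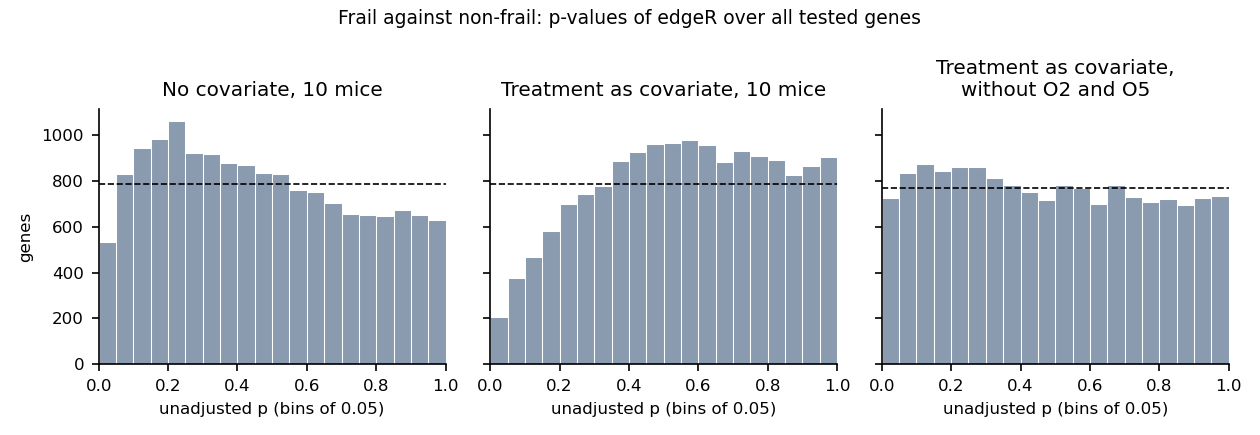
Number of genes (vertical axis) by unadjusted p-value of edgeR (horizontal axis, in bins of 0.05) for frail against non-frail mice without a covariate, with treatment as a covariate, and with treatment and without O2 and O5; dashed lines mark an even spread of the tested genes. The bin nearest 0 holds 534, 204 and 725 genes in the 3 fits, each under the dashed line.

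The 4 genes called by DESeq2 without the covariate were Ctrl, Bmp7, Trim7 and Igkv5-43, and the first and last of these were named after their values were seen. Ctrl, a chymotrypsin-like protease of pancreatic juice, was measured at 0.175 CPM in O1, 0.240 in P1, 0.241 in P2 and 0.125 in P3, and at 0.0748 to 22.0 CPM in the frail mice. Its higher values lay in O3 (20.3 CPM), O4 (22.0 CPM) and P5 (4.08 CPM) (adjusted p = 0.0130 by DESeq2). The gene passed the low-count filter through the frail mice, and its non-frail values rest on few counts, so that no fold change is given. In these 3 frail mice the list of exocrine pancreas genes was also present: its 10 genes other than Cela1 summed to 331, 417 and 79.3 CPM in O3, O4 and P5, against 0.150 to 5.75 CPM in the other 7 mice, and 9 of the 10 had 50 counts or more in each of the 3. Igkv5-43, a variable segment of the immunoglobulin kappa light chain, was at 1.09 CPM in O1, 11.9 in P1, 0.442 in P2 and 2.63 in P3, and at 0 to 0.567 CPM in the frail mice (adjusted p = 0.0257 by DESeq2). Its non-frail values spread widely, with P2 inside the range of the frail mice.

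The frail mice differed more among themselves than the non-frail mice did. The SD of log2 CPM of a gene had a median of 0.473 in the frail and 0.253 in the non-frail group, and it was larger in the frail group for 13051 genes (82.9%). Without O2 and O5 the median in the frail group was 0.240, and the SD was larger there for 46.8% of genes. Leaving out O5 alone gave a median of 0.337 and leaving out O2 alone gave 0.438. The common biological coefficient of variation, edgeR's estimate of the spread between mice of a group, was 42.4% over the 10 mice without and 43.7% with treatment in the model, and 24.9% over the 8 mice with treatment. Of all genes, 99 had every frail mouse above every non-frail mouse (0.629%) and 59 had every frail mouse below (0.375%). Among the 8 mice these numbers were 333 (2.12%) and 193 (1.23%). Smaller groups separate fully more often by chance, so the shares of the 8 and of the 10 mice cannot be compared directly.

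The 12 genes of smallest p in the upward direction of either fit were Dsp, Mug1, Cyp2c54, Adamts7, Etnppl, Rfx1, Dgcr8, Fan1, Hyal1, Ces2a, Tfrc and C8a, and none passed the threshold (adjusted p of 0.887 or more without and 0.999 with treatment, edgeR). Their values are in CPM scaled by the TMM factors of the 10 mice, their log2 fold changes are frail minus non-frail, and the ranges of the Adult mice come from a scaling of all 15 mice. In 5 of them, Dsp, Mug1, Rfx1, Dgcr8 and Fan1, the 6 frail mice lay above the 4 non-frail mice with no overlap. The same held for 99 of all 15744 genes tested (0.629%). The named genes were picked by p in this same comparison, which favours such gaps.

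Dsp (ENSMUSG00000054889, chr13:38151294-38198577 in GRCm38), the gene of desmoplakin, which ties desmosomes to keratin filaments, was at 26.1 CPM in O1, 20.7 in P1, 20.2 in P2 and 27.6 in P3. It ran from 30.5 to 47.8 CPM in the frail mice, with a median of 38.5. Every frail mouse was above every non-frail mouse, with O3 and O5 highest, and the Adult mice spanned 43.6 to 62.1 CPM. The log2 fold change was 0.72 (SE 0.18) without and 0.63 (SE 0.19) with treatment in the model. Mug1 (ENSMUSG00000059908, chr6:121838541-121889057), a plasma protease inhibitor of the alpha-2-macroglobulin family, was at 249 CPM in O1, 209 in P1, 231 in P2 and 255 in P3. It spanned 323 to 946 CPM in the frail mice, with a median of 474. The non-frail mice were close together and all below the frail mice, O3 was by far the highest, and the Adult range was 889.8 to 1783 CPM. Its log2 fold change was 1.11 (SE 0.30) without and 0.96 (SE 0.34) with treatment. Murinoglobulin genes are close copies of each other. Only uniquely aligned read pairs were counted, so pairs matching both Mug1 and Mug-ps1 were left out of both.

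Cyp2c54 (ENSMUSG00000067225, chr19:40037940-40073827), a cytochrome P450 of the Cyp2c cluster, whose members share much of their sequence, was at 42.0 CPM in O1, 4.55 in P1, 5.59 in P2 and 17.6 in P3. It spanned 28.4 to 357 CPM in the frail mice, with a median of 110.3. Among the non-frail mice O1 was highest, above the frail mouse P4 (28.4 CPM), and the other 5 frail mice lay above all 4. The log2 fold change was 2.93 (SE 0.85) without and 2.60 (SE 0.73) with treatment, and the Adult mice, at 320.4 to 502 CPM, were near or above O3, the highest frail mouse. Its neighbour in the cluster, Cyp2c50, was at 123 CPM in O1, 33.6 in P1, 64.0 in P2 and 302 in P3, and spanned 180.2 to 890.1 CPM in the frail mice, with a median of 423. P3 lay inside the frail range, and the log2 fold change was 1.91 (SE 0.65) without and 1.61 (SE 0.75) with treatment.

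Etnppl (ENSMUSG00000019232, chr3:130617448-130637521), the lyase that breaks down phosphoethanolamine, was at 12.7 CPM in O1, 8.39 in P1, 11.3 in P2 and 16.8 in P3. It spanned 8.64 to 109.9 CPM in the frail mice, with a median of 49.3. O5 was highest and O2, at 8.64 CPM, lay among the non-frail mice, and the log2 fold change was 2.05 (SE 0.62) without and 1.88 (SE 0.69) with treatment. Adamts7 (ENSMUSG00000032363, chr9:90163069-90208071), a secreted metalloprotease of the matrix, was at 1.49 CPM in O1, 1.76 in P1, 1.37 in P2 and 2.79 in P3, and spanned 2.14 to 8.94 CPM in the frail mice, with a median of 5.21. O3, O5 and P5 were well above the rest and P4 lay inside the non-frail range. The log2 fold changes of Adamts7 were 1.51 (SE 0.45) without and 1.48 (SE 0.52) with treatment, and both genes were higher in the Adult mice, at 119.7 to 208 CPM for Etnppl and 11.3 to 23.3 CPM for Adamts7, than in any mouse of this comparison.

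Rfx1 (ENSMUSG00000031706, chr8:84066834-84096992), a winged-helix transcription factor, was at 8.01 CPM in O1, 10.0 in P1, 11.4 in P2 and 12.0 in P3. It spanned 12.3 to 22.1 CPM in the frail mice, with a median of 15.4. The gap was small, with O4 just above P3, and the log2 fold change was 0.64 (SE 0.19) without and 0.64 (SE 0.24) with treatment. Dgcr8 (ENSMUSG00000022718, chr16:18253948-18289246), the partner of Drosha in cutting primary microRNAs, was at 8.50 CPM in O1, 8.91 in P1, 9.65 in P2 and 9.77 in P3, and spanned 11.2 to 23.6 CPM in the frail mice, with a median of 13.9. O5 stood above all others, and the log2 fold change was 0.69 (SE 0.22) without and 0.53 (SE 0.24) with treatment. Fan1 (ENSMUSG00000033458, chr7:64346758-64374095), a nuclease that repairs crosslinks between DNA strands, was at 1.23 CPM in O1, 1.92 in P1, 2.49 in P2 and 1.75 in P3 and spanned 2.84 to 4.08 CPM in the frail mice, with a median of 2.95. O2 was highest, the other 5 frail mice were close together, and the log2 fold change was 0.76 (SE 0.24) without and 0.82 (SE 0.29) with treatment.

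Hyal1, Ces2a, Tfrc and C8a entered through the fit with treatment. Hyal1 (ENSMUSG00000010051, chr9:107576927-107581710), the lysosomal hyaluronidase, was at 12.4 CPM in O1, 15.2 in P1, 21.0 in P2 and 16.8 in P3. It spanned 14.8 to 33.9 CPM in the frail mice, with a median of 25.1. O2 alone of the frail mice lay inside the non-frail range, and the log2 fold change was 0.64 (SE 0.23) without and 0.81 (SE 0.24) with treatment. Ces2a (ENSMUSG00000055730, chr8:104734003-104741634), a carboxylesterase that hydrolyses lipids and drugs, was at 144 CPM in O1, 190.2 in P1, 176 in P2 and 244 in P3, and spanned 169.6 to 371 CPM in the frail mice, with a median of 297. O2 and O5 lay inside the non-frail range and the other 4 frail mice above it, and the log2 fold change was 0.57 (SE 0.24) without and 0.76 (SE 0.24) with treatment. C8a (ENSMUSG00000035031, chr4:104815679-104876398), the alpha chain of complement component 8, was at 101 CPM in O1, 98.2 in P1, 151 in P2 and 229.8 in P3, and spanned 131 to 369.7 CPM in the frail mice, with a median of 289.9. Here too O2 and O5 were inside the non-frail range, and the log2 fold change was 0.89 (SE 0.33) without and 1.07 (SE 0.37) with treatment. Tfrc (ENSMUSG00000022797, chr16:32608920-32632794), the transferrin receptor that brings iron into cells, was at 25.3 CPM in O1, 27.2 in P1, 38.7 in P2 and 22.9 in P3, and spanned 30.8 to 60.2 CPM in the frail mice, with a median of 43.8. Only O2, O5 and P4 lay above P2, the highest non-frail mouse, and the log2 fold change was 0.64 (SE 0.22) without and 0.73 (SE 0.25) with treatment.

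**Figure D3:**
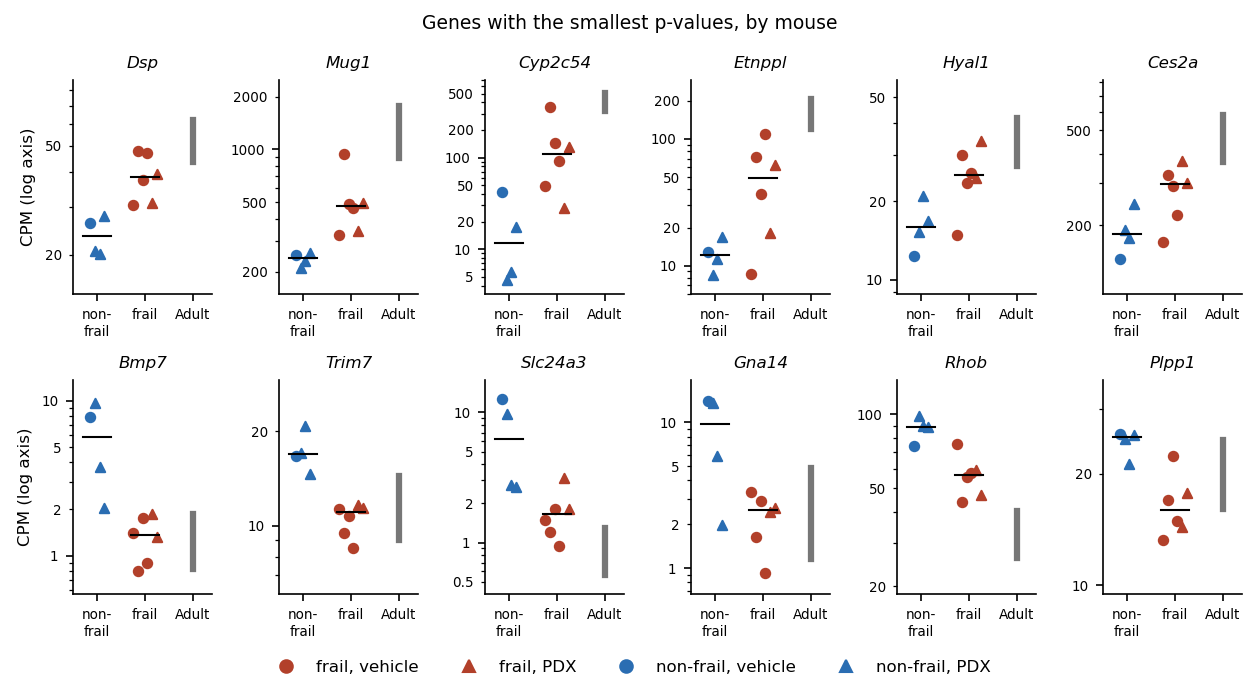
CPM of 12 named genes in each of the 10 mice (vertical axes, log scale), with non-frail mice in blue and frail mice in red, vehicle as circles and PDX as triangles, lines at the group medians, and grey bars for the range of the 5 Adult mice. The 6 frail mice lie above the 4 non-frail mice in Dsp and Mug1 and below them in Bmp7 and Trim7.

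The 10 genes of smallest p in the downward direction were Bmp7, Trim7, Slc24a3, B3galt1, Gna14, Rhob, Lipt2, Plpp1, Camk2b and Peg3, also with adjusted p of 0.887 or more without and 0.999 with treatment (edgeR). In Bmp7 and Trim7 all 6 frail mice lay below all 4 non-frail mice, as in 59 of all 15744 genes tested (0.375%). Bmp7 (ENSMUSG00000008999, chr2:172868012-172940321), a secreted ligand of the transforming growth factor beta superfamily, was at 7.88 CPM in O1, 9.71 in P1, 3.74 in P2 and 2.04 in P3. It spanned 0.796 to 1.86 CPM in the frail mice, with a median of 1.36. O1 and P1 were highest, P3 was just above P4, the highest frail mouse, and the Adult range, 0.823 to 1.87 CPM, nearly coincided with that of the frail mice. The log2 fold change was -2.12 (SE 0.42) without and -2.12 (SE 0.46) with treatment in edgeR, and DESeq2 gave -2.12 with an adjusted p of 0.0178 without treatment. Trim7 (ENSMUSG00000040350, chr11:48826140-48852209), an E3 ubiquitin ligase first found by its binding to glycogenin, was at 16.7 CPM in O1, 17.1 in P1, 20.8 in P2 and 14.7 in P3. It spanned 8.53 to 11.7 CPM in the frail mice, with a median of 11.0. The frail mice were close together and all below P3, the lowest non-frail mouse. Its log2 fold change was -0.72 (SE 0.15) without and -0.66 (SE 0.17) with treatment, and DESeq2 gave -0.71 with an adjusted p of 0.0257 without treatment.

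Slc24a3 (ENSMUSG00000063873, chr2:145167754-145642166), a potassium-dependent sodium and calcium exchanger, was at 12.7 CPM in O1, 9.67 in P1, 2.77 in P2 and 2.66 in P3, and spanned 0.935 to 3.15 CPM in the frail mice, with a median of 1.65. O1 and P1 were well above the other 8 mice, P2 and P3 lay inside the frail range, and the log2 fold change was -2.0 (SE 0.49) without and -2.0 (SE 0.52) with treatment. Gna14 (ENSMUSG00000024697, chr19:16435762-16610820), an alpha subunit of the Gq family of G proteins, was at 14.0 CPM in O1, 13.6 in P1, 5.87 in P2 and 1.97 in P3, and spanned 0.935 to 3.33 CPM in the frail mice, with a median of 2.51. O1 and P1 were again highest and P3 lay among the frail mice, and the log2 fold change was -1.94 (SE 0.50) without and -2.0 (SE 0.54) with treatment. Lipt2 (ENSMUSG00000030725, chr7:100159277-100161365), which starts the lipoylation of mitochondrial enzymes, was at 12.2 CPM in O1, 7.95 in P1, 3.62 in P2 and 5.35 in P3, and spanned 2.31 to 3.88 CPM in the frail mice, with a median of 3.59. P2 lay among the frail mice, and the log2 fold change was -1.13 (SE 0.31) without and -1.19 (SE 0.33) with treatment. B3galt1 (ENSMUSG00000034780, chr2:67565871-68122689), a galactosyltransferase, was at 28.2 CPM in O1, 93.9 in P1, 186 in P2 and 10.9 in P3, and spanned 4.30 to 21.9 CPM in the frail mice, with a median of 12.4. P1 and P2 were far above the other 8 mice and P3 lay inside the frail range, and the log2 fold change was -2.66 (SE 0.66) without and -2.10 (SE 0.73) with treatment.

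Camk2b (ENSMUSG00000057897, chr11:5969644-6066362), a subunit of a calcium-dependent kinase, was at 39.4 CPM in O1, 20.9 in P1, 12.9 in P2 and 7.61 in P3, and spanned 4.01 to 11.8 CPM in the frail mice, with a median of 7.35. Peg3 (ENSMUSG00000002265, chr7:6703892-6730431), an imprinted zinc-finger gene, was at 61.9 CPM in O1, 33.3 in P1, 9.73 in P2 and 6.92 in P3, and spanned 5.72 to 16.6 CPM in the frail mice, with a median of 8.15. In both genes O1 was highest and P1 next, while P3, and in Peg3 also P2, lay inside the frail range. The log2 fold changes were -1.42 (SE 0.42) without and -1.51 (SE 0.42) with treatment for Camk2b and -1.57 (SE 0.55) without and -1.67 (SE 0.53) with treatment for Peg3. Rhob (ENSMUSG00000054364, chr12:8497661-8500009), a small GTPase of endosomes, was at 74.2 CPM in O1, 98.6 in P1, 89.5 in P2 and 88.6 in P3, and spanned 44.0 to 75.8 CPM in the frail mice, with a median of 56.6. O2 alone lay inside the non-frail range, and the log2 fold change was -0.63 (SE 0.17) without and -0.62 (SE 0.20) with treatment. Plpp1 (ENSMUSG00000021759, chr13:112800792-112867894), a phosphatase of lipid phosphates on the cell surface, was at 25.7 CPM in O1, 24.9 in P1, 21.2 in P2 and 25.5 in P3, and spanned 13.3 to 22.3 CPM in the frail mice, with a median of 15.9. O4 alone lay inside the non-frail range, and the log2 fold change was -0.55 (SE 0.16) without and -0.59 (SE 0.18) with treatment.

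Without O2 and O5 and with treatment as a covariate, edgeR again called 0 genes, with a smallest adjusted p of 0.923 and 725 genes at an unadjusted p under 0.05, whereas DESeq2 called 16, 9 higher and 7 lower. DESeq2 without the covariate called 38 genes in these 8 mice, 15 higher and 23 lower, and edgeR 0 (smallest adjusted p 0.797, 962 at an unadjusted p under 0.05). The genes of smallest p in edgeR were Mug-ps1, Zfp707, Ces2a and Hyal1 on the upward side and Rhob, Gpx3, Trim7 and Nudt18 on the downward side. The log2 fold changes in the 8 mice were 0.86 (SE 0.17) for Ces2a, 0.87 (SE 0.18) for Hyal1, -0.71 (SE 0.13) for Rhob and -0.64 (SE 0.13) for Trim7. Ces2a, Hyal1, Rhob, Gpx3, Mug-ps1 and Zfp707 were among the 16 genes that DESeq2 called, as were Mug1, C8a, Etnppl, Bmp7 and Ctrl. O2 and O5 were left out for their expression in these same data, and this DESeq2 fit was not planned. Its calls are therefore no independent support for these genes.

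In 4 of these genes O2 or O5 lay on the other side of the non-frail mice from the rest of the frail mice. Mug-ps1 (ENSMUSG00000101397, chr6:122176015-122248563), a murinoglobulin pseudogene, was at 48.7 CPM in O1, 27.0 in P1, 25.7 in P2 and 40.0 in P3. The frail mice spanned 7.07 to 105 CPM, with O5 lowest of all 10 and the other 5 above every non-frail mouse. Its log2 fold change with treatment was 0.89 (SE 0.60) over 10 mice and 1.15 (SE 0.20) over 8. Zfp707 (ENSMUSG00000034429, chr15:75969123-75975868), a zinc-finger gene, was at 30.7 CPM in O1, 24.1 in P1, 25.4 in P2 and 23.1 in P3, and the frail mice spanned 17.0 to 45.0 CPM. O2 was lowest of the 10 mice and the other 5 frail mice were above every non-frail mouse, with log2 fold changes of 0.45 (SE 0.27) and 0.61 (SE 0.11). Gpx3 (ENSMUSG00000018339, chr11:54902453-54910377), the glutathione peroxidase of plasma, was at 70.3 CPM in O1, 63.4 in P1, 39.9 in P2 and 28.4 in P3, and the frail mice spanned 19.2 to 113 CPM. O5 was highest of the 10 and the other 5 frail mice were below every non-frail mouse, with log2 fold changes of -0.91 (SE 0.58) and -1.28 (SE 0.24). Nudt18 (ENSMUSG00000045211, chr14:70577637-70582688), a hydrolase of oxidised nucleotides, was at 28.6 CPM in O1, 23.2 in P1, 23.1 in P2 and 24.1 in P3, and the frail mice spanned 10.8 to 70.4 CPM. O5 was again highest and the other 5 were lowest, with log2 fold changes of -0.36 (SE 0.55) and -0.79 (SE 0.17). The Adult mice were at 113 to 164 CPM in Mug-ps1, 34.3 to 47.7 CPM in Zfp707, 4.92 to 7.50 CPM in Gpx3 and 9.51 to 12.3 CPM in Nudt18.

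Within a treatment, the difference between frail and non-frail mice rested on 4 mice against O1 alone in the vehicle group, and on 2 against 3 in the PDX group. The sign of the difference was the same in both treatments for 7347 of 15638 genes (47.0%). The interaction of frailty and treatment called 0 genes by edgeR and 0 by DESeq2, with 276 and 509 at an unadjusted p under 0.05. The 3 named genes of smallest interaction p were Plk2, Slc43a1 and Ddhd2. Plk2, a polo-like kinase induced by stress, was at 36.0 CPM in O1, 17.0 in P1, 11.3 in P2 and 14.4 in P3, and spanned 8.64 to 16.9 CPM in the frail mice, with a median of 12.7. Slc43a1, a transporter of large neutral amino acids, was at 21.8 CPM in O1, 10.8 in P1, 8.93 in P2 and 8.52 in P3, and spanned 9.73 to 15.3 CPM in the frail mice, with a median of 11.2. Ddhd2, a lipase of membrane and storage lipids, was at 4.86 CPM in O1, 8.11 in P1, 12.9 in P2 and 9.99 in P3, and spanned 9.10 to 12.9 CPM in the frail mice, with a median of 11.7. In the first 2 O1 was highest of the 10 mice and in Ddhd2 it was lowest, and O1 was the only non-frail mouse on vehicle. The interaction was 1.84 (SE 0.39), 1.54 (SE 0.37) and -1.49 (SE 0.41) on the log2 scale in the same order.

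Gene groups are described by 38 lists of cell type markers and pathways, with no list test. Over all 15744 genes the median log2 fold change was 0.06 without treatment, 0.03 with treatment and -0.0038 with treatment and without O2 and O5, and 9095 and 8439 genes had values above 0 in the first 2 fits. In every list 0 members passed the adjusted threshold of edgeR in either direction and in either fit. In bulk liver, fewer cells of a type and less RNA per cell cannot be told apart. Where a list has 3 counts of values above 0 or 3 medians, they are without treatment, with treatment, and with treatment and without O2 and O5, in that order. Single values named below are log2 fold changes with treatment as a covariate unless stated.

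Hepatocyte markers marked the tissue as liver in all 10 mice: Alb took 3.62% of counts in O5 and 8.38% to 15.9% in the others, and 10 of 20, 10 of 20 and 13 of 20 hepatocyte genes had values above 0 (medians 0.002, -0.01 and 0.09). Asgr1, the asialoglycoprotein receptor, was at 499 to 1448 CPM in the non-frail and 256 to 741 CPM in the frail mice, log2 fold change -0.72 (SE 0.40), and Apoc3, an apolipoprotein, at 1355 to 1910.4 CPM in the non-frail and 580.2 to 1401 CPM in the frail mice, log2 fold change -0.54 (SE 0.30). Of 14 marker genes of sinusoidal endothelium, the fenestrated lining of the liver's small vessels, 2 had values above 0 in each fit, with medians of -0.30 without treatment, -0.24 with treatment and -0.21 with treatment and without O2 and O5. In 2 of the other 12, Clec4g and Stab1, all frail mice lay below all non-frail mice, beside 59 of all genes tested (0.375%), and both were named after their values were seen. Clec4g, a lectin receptor of these cells, was at 91.6 CPM in O1, 90.2 in P1, 80.6 in P2 and 83.1 in P3, and spanned 13.8 to 79.4 CPM in the frail mice, with a median of 61.1. Stab1, a scavenger receptor, was at 66.6 CPM in O1, 82.9 in P1, 71.4 in P2 and 76.4 in P3, and spanned 45.8 to 66.2 CPM in the frail mice, with a median of 62.5. O5 was lowest in both genes, and P5, the highest frail mouse in both, was just below the lowest non-frail mouse. Their log2 fold changes were -0.69 (SE 0.39) without and -0.58 (SE 0.42) with treatment for Clec4g and -0.32 (SE 0.14) without and -0.24 (SE 0.15) with treatment for Stab1. Bmp2, the endothelial signal for hepcidin, was at 20.6 to 27.1 CPM in the non-frail and 8.58 to 21.8 CPM in the frail mice, log2 fold change -0.56 (SE 0.26), and Gpr182, a scavenger of chemokines, at 29.2 to 50.2 CPM in the non-frail and 15.0 to 33.8 CPM in the frail mice, log2 fold change -0.51 (SE 0.25). Summed CPM of the list was 335 in O5, 606 to 738 in the other frail mice and 656 to 800.02 in the non-frail mice.

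Genes of red cells and their precursors had values above 0 in 11 of 11 tested members, in both fits, with medians of 1.25 without treatment, 1.11 with treatment and 0.68 with treatment and without O2 and O5. Their summed CPM was 255 in O1, 171 in P1, 313 in P2 and 185 in P3. Among the frail mice it ran from 168 to 1308 with a median of 462, and O2, O3, P4 and P5 lay above all non-frail mice while O4, by little, and O5 lay below them. Hbb-bs, the adult beta-globin, was at 86.9 to 153 CPM in the non-frail and 69.5 to 665 CPM in the frail mice, log2 fold change 1.23 (SE 0.65). It is a near-identical copy of Hbb-bt, so that read pairs matching both were left out of both.

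Summed CPM of MHC class II genes was 6186 in O2 and 48.9 to 933 in the other 9 mice, with O5 lowest, and that of T cell and cytotoxic lymphocyte genes was 288 in O2 and 6.36 to 60.3 in the others. The MHC class II list had 9 of 10, 9 of 10 and 4 of 10 values above 0 (medians 1.22, 0.53 and -0.01), and the T cell list 15 of 17, 14 of 17 and 7 of 16 (medians 0.48, 0.57 and -0.08). H2-DMa and H2-DMb1, chaperones of peptide loading, were at 5.43 to 15.8 and 5.51 to 12.7 CPM in the non-frail mice and reached 69.9 and 82.3 CPM in O2. Prf1, perforin, was at 0.613 to 1.00 CPM in the non-frail and 0.340 to 4.36 CPM in the frail mice, log2 fold change 0.69 (SE 0.82), and Eomes, a transcription factor of cytotoxic lymphocytes, at 0.219 to 0.939 CPM in the non-frail and 0.187 to 6.95 CPM in the frail mice, log2 fold change 1.09 (SE 1.37).

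Kupffer cell genes, those of the resident macrophages, had values above 0 in 10 of 13, 10 of 13 and 4 of 13 members (medians 0.25, 0.31 and -0.06), and their summed CPM was 4995 in O2 and 628 in O5, the highest and lowest of the 10 mice. Marco, a scavenger receptor, was at 13.3 to 196 CPM in the non-frail and 13.7 to 94.7 CPM in the frail mice, log2 fold change -0.93 (SE 1.11), and Slc40a1, the iron exporter ferroportin, at 177 to 192 CPM in the non-frail and 37.8 to 219 CPM in the frail mice, log2 fold change -0.33 (SE 0.41). Lipid-associated macrophage genes had 9 of 13, 8 of 13 and 2 of 13 values above 0 (medians 0.19, 0.08 and -0.27), with Cd9 at 22.8 to 76.7 CPM in the non-frail and 22.2 to 44.0 CPM in the frail mice, log2 fold change -0.63 (SE 0.30), and the elastase Mmp12 at 1.85 to 12.1 CPM in the non-frail and 1.89 to 9.46 CPM in the frail mice, log2 fold change -0.91 (SE 0.82). Neutrophil granule genes had 14 of 15, 14 of 15 and 5 of 14 above 0 (medians 0.63, 0.51 and -0.08). Mmp9, a gelatinase of neutrophil granules, was at 1.31 to 4.34 CPM in the non-frail and 1.93 to 24.3 CPM in the frail mice, log2 fold change 2.01 (SE 0.74), with P4, O2 and O5 above the non-frail mice, and Ltf, lactoferrin, at 0.701 to 8.73 CPM in the non-frail and 0.530 to 42.1 CPM in the frail mice, log2 fold change 1.45 (SE 1.60).

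B cell genes had 9 of 9, 4 of 9 and 3 of 9 values above 0 (medians 0.28, -0.04 and -0.07), and their highest sums were 153 CPM in O2 and 124 CPM in O3. Cd22, a co-receptor of B cells, was at 3.37 to 10.8 CPM in the non-frail and 2.43 to 28.0 CPM in the frail mice, log2 fold change 0.45 (SE 0.82), and Cd79a, a chain of the antigen receptor, at 2.09 to 12.5 CPM in the non-frail and 2.25 to 21.3 CPM in the frail mice, log2 fold change -0.60 (SE 1.15). Plasma cell genes had 6 of 12, 5 of 12 and 4 of 12 above 0 (medians -0.25, -0.30 and -0.40), with Fkbp11 at 8.12 to 42.2 CPM in the non-frail and 6.66 to 27.4 CPM in the frail mice, log2 fold change -0.84 (SE 0.53), and the immunoglobulin constant gene Ighg2c at 0.0400 to 33.8 CPM in the non-frail and 1.14 to 13.2 CPM in the frail mice, log2 fold change -2.07 (SE 1.59). The groups overlapped in all 4 genes.

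Stellate cell genes had 11 of 13, 8 of 13 and 7 of 13 values above 0 (medians 0.28, 0.09 and 0.10) and matrix genes 15 of 20, 12 of 20 and 6 of 20 (medians 0.25, 0.04 and -0.20). Smooth muscle actin, Acta2, was at 8.04 to 14.6 CPM in the non-frail and 8.87 to 31.5 CPM in the frail mice, log2 fold change 0.37 (SE 0.35), and desmin, Des, at 10.4 to 14.7 CPM in the non-frail and 10.0 to 23.7 CPM in the frail mice, log2 fold change 0.24 (SE 0.28). Lum, a proteoglycan, was at 14.5 to 30.1 CPM in the non-frail and 12.2 to 30.0 CPM in the frail mice, log2 fold change -0.33 (SE 0.34), and Col15a1, a basement membrane collagen, at 23.5 to 37.8 CPM in the non-frail and 18.0 to 28.3 CPM in the frail mice, log2 fold change -0.18 (SE 0.20). Cholangiocyte genes had 8 of 11, 8 of 11 and 8 of 10 above 0 (medians 0.60, 0.42 and 0.16), with the keratin Krt19 at 1.76 to 2.67 CPM in the non-frail and 2.04 to 10.9 CPM in the frail mice, log2 fold change 1.11 (SE 0.56), where O4, O5 and P5 lay above all non-frail mice, and the tight junction gene Cldn7 at 0.402 to 1.22 CPM in the non-frail and 0.455 to 2.36 CPM in the frail mice, log2 fold change 0.81 (SE 0.61). The pancreas list had 3 tested genes. Ctrb1, a chymotrypsinogen, was at 0.0313 to 0.643 CPM in the non-frail and 0.0287 to 108 CPM in the frail mice. It passed the low-count filter largely through O3, O4 and P5. Its other values rest on few counts, so that no fold change is given. The elastase Cela2a was at 0.939 to 4.38 CPM in the non-frail and 0.112 to 65.5 CPM in the frail mice, log2 fold change 2.42 (SE 1.67). This fitted fold change rests on values near 0 in some mice and is no bound. Both genes were highest in O3, O4 and P5. Whether tissue of another organ entered those 3 samples was not tested. Adipocyte genes had 4 tested members: Cidec, a lipid droplet protein, was at 0.479 to 0.569 CPM in the non-frail and 0.344 to 19.3 CPM in the frail mice, log2 fold change 1.56 (SE 1.35), and Plin4, another, at 1.66 to 5.99 CPM in the non-frail and 1.97 to 39.7 CPM in the frail mice, log2 fold change 0.58 (SE 1.33), with O5 far above the rest in both. The summed CPM of the list was lowest in O5, at 59.1, against 160 to 1602 in the other mice of this comparison. Cidec and Plin4 made up nearly all of the sum in O5. The low total followed the member Car3, which was near 0 in O5 and is given under the other observations.

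**Figure D4:**
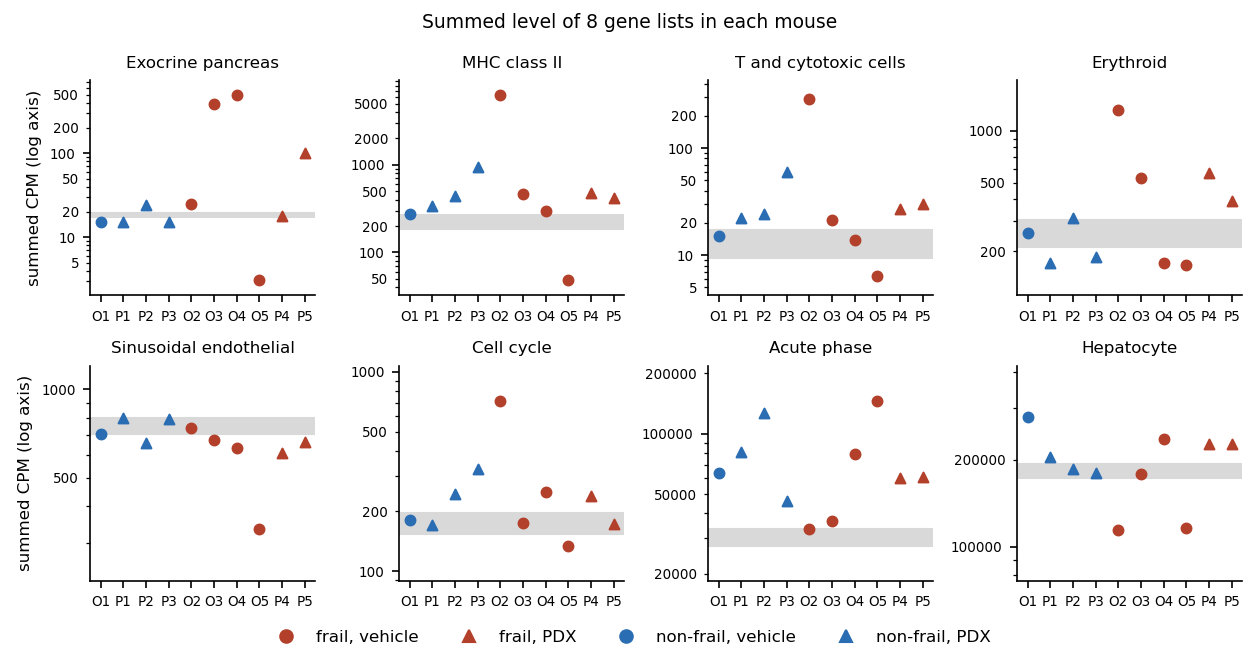
Summed CPM of the genes of 8 lists in each of the 10 mice (vertical axes, log scale, mice on the horizontal axes), non-frail mice in blue and frail mice in red, vehicle as circles and PDX as triangles, with grey bands for the range of the 5 Adult mice. O2 is highest for MHC class II, at 6186 CPM, and O3, O4 and P5 are highest for the pancreas list with Cela1, at 389, 496 and 99.9 CPM.

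Among liver functions, drug-metabolizing cytochrome P450 genes had 18 of 30, 19 of 30 and 22 of 30 values above 0 (medians 0.09, 0.12 and 0.19), and in the 8 mice 7 members had an unadjusted p under 0.05 upward and 0 downward, beside 412 upward (2.67%) and 313 downward (2.03%) of the 15422 genes tested in these mice. Over the 10 mice the upward members at this level were 4 without treatment, beside 1.96% of all genes. With treatment there was 1, beside 0.559%, and 0 members were downward in either fit. Genes of bile acid synthesis and transport had 9 of 22, 11 of 22 and 13 of 22 above 0 (medians -0.08, 0.02 and 0.08). Abcc3, a basolateral exporter of bile acids, was at 43.3 CPM in O1, 40.7 in P1, 37.2 in P2 and 183 in P3, and spanned 124 to 393 CPM in the frail mice, with a median of 185. P3 lay inside the frail range and the other 3 non-frail mice below it, with a log2 fold change of 1.51 (SE 0.67). Cyp7b1, an oxysterol hydroxylase of the alternative bile acid pathway, was at 23.6 to 93.7 CPM in the non-frail and 7.67 to 46.3 CPM in the frail mice, log2 fold change -0.98 (SE 0.50). Urea cycle and amino acid catabolism genes had 16 of 24, 17 of 24 and 20 of 24 above 0 (medians 0.19, 0.17 and 0.18). Gls2, the liver glutaminase, was at 175 to 424 CPM in the non-frail and 119 to 579.7 CPM in the frail mice, log2 fold change 0.73 (SE 0.45), and Hal, histidine ammonia-lyase, at 336 to 460.4 CPM in the non-frail and 147 to 742 CPM in the frail mice, log2 fold change 0.53 (SE 0.38), with O2 lowest of the 10 mice in both.

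Sulfotransferase and steroid dehydrogenase genes had 4 of 17, 4 of 17 and 7 of 17 values above 0 (medians -0.30, -0.34 and -0.08). Sult5a1, a sulfotransferase, was at 35.5 CPM in O1, 76.4 in P1, 80.5 in P2 and 24.7 in P3, and spanned 0.898 to 28.0 CPM in the frail mice, with a median of 17.2. Of the frail mice P4 alone lay above P3, the lowest non-frail mouse, and the log2 fold change was -1.75 (SE 0.65) without and -1.43 (SE 0.70) with treatment. Sult1c2 was at 6.33 to 10.9 CPM in the non-frail and 1.83 to 7.72 CPM in the frail mice, log2 fold change -0.57 (SE 0.37). Antioxidant and glutathione transferase genes had 10 of 18, 11 of 18 and 10 of 18 above 0 (medians 0.03, 0.06 and 0.03), with Gstp1 at 131 to 331 CPM in the non-frail and 90.4 to 182 CPM in the frail mice, log2 fold change -0.58 (SE 0.30), and Pgd, of the pentose phosphate pathway, at 94.6 to 125 CPM in the non-frail and 79.7 to 109 CPM in the frail mice, log2 fold change -0.32 (SE 0.16). Gstp1 has close copies, and read pairs that match several of them were not counted.

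The liver makes and exports much of the body's cholesterol. Cholesterol synthesis genes had 2 of 24 values above 0 without treatment, 5 of 24 with treatment and 10 of 24 in the 8 mice, with medians of -0.45, -0.25 and -0.04. Their summed CPM was 1772 in O5 and 3954 in O2, the lowest of the 10 mice, and 5851 to 11662 in the others. Fdps, farnesyl diphosphate synthase, was at 116 to 185 CPM in the non-frail and 20.6 to 118 CPM in the frail mice, log2 fold change -0.72 (SE 0.46), and Nsdhl, a sterol dehydrogenase, at 199 to 298 CPM in the non-frail and 26.1 to 214 CPM in the frail mice, log2 fold change -0.78 (SE 0.53). Lipogenesis and lipid droplet genes had 7 of 23, 10 of 23 and 14 of 23 above 0 (medians -0.17, -0.02 and 0.05), with Dgat2, an enzyme of triglyceride synthesis, at 520.00 to 917 CPM in the non-frail and 279.6 to 679 CPM in the frail mice, log2 fold change -0.48 (SE 0.32), and malic enzyme, Me1, at 78.6 to 177 CPM in the non-frail and 26.2 to 103 CPM in the frail mice, log2 fold change -0.56 (SE 0.40). Fatty acid oxidation genes had 12 of 29, 12 of 29 and 17 of 29 above 0 (medians -0.14, -0.14 and 0.01), with Cpt1a, the gate of mitochondrial oxidation, at 161 to 199 CPM in the non-frail and 138 to 897 CPM in the frail mice, log2 fold change 0.68 (SE 0.59).

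Respiratory chain subunits had 3 of 74 values above 0 in both fits, with small medians of -0.17 without treatment, -0.14 with treatment and -0.05 with treatment and without O2 and O5, and 14 of 74 in the 8 mice. Their summed CPM was 5871 in O2 and 8947 in O5, the lowest of the 10, and 9135 to 11275 in the others. Ndufs4, a subunit of complex I, was at 54.7 to 69.9 CPM in the non-frail and 33.8 to 55.3 CPM in the frail mice, log2 fold change -0.31 (SE 0.18), and Atp5g2, a copy of the ATP synthase c subunit, at 0.564 to 1.01 CPM in the non-frail and 0.832 to 2.32 CPM in the frail mice, log2 fold change 0.77 (SE 0.38). Cytosolic ribosomal protein genes had 41 of 60, 9 of 60 and 3 of 60 above 0 (medians 0.05, -0.08 and -0.13), with Rps26 at 41.9 to 77.0 CPM in the non-frail and 46.1 to 68.5 CPM in the frail mice, log2 fold change -0.27 (SE 0.18), and Rps16 at 14.7 to 25.2 CPM in the non-frail and 14.1 to 26.6 CPM in the frail mice, log2 fold change -0.26 (SE 0.20). Genes of Myc and ribosome biogenesis had 31 of 32, 26 of 32 and 7 of 32 above 0 (medians 0.34, 0.11 and -0.10), and their sum was 2714 CPM in O5 and 801 to 1035 CPM in the other 9. Myc was at 5.39 to 7.86 CPM in the non-frail and 4.27 to 32.0 CPM in the frail mice, log2 fold change 0.58 (SE 0.63), and Dkc1, the pseudouridine synthase dyskerin, at 14.0 to 15.5 CPM in the non-frail and 14.8 to 28.8 CPM in the frail mice, log2 fold change 0.25 (SE 0.22). Cell cycle genes had 29 of 30, 27 of 30 and 12 of 30 above 0 (medians 0.88, 0.42 and -0.05), with the mitotic genes Birc5 at 0.360 to 1.10 CPM in the non-frail and 0.378 to 9.59 CPM in the frail mice, log2 fold change 1.29 (SE 1.05), and Cdc20 at 0.438 to 1.06 CPM in the non-frail and 0.692 to 7.58 CPM in the frail mice, log2 fold change 1.04 (SE 0.86), both highest in O2.

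Senescence and p53 target genes had 8 of 18, 10 of 18 and 7 of 18 values above 0 (medians -0.05, 0.03 and -0.03). Gadd45a, induced by DNA damage and other stress, was the member whose groups did not overlap, beside 59 of all genes tested (0.375%) with every frail mouse below. It was at 22.4 CPM in O1, 27.3 in P1, 28.2 in P2 and 19.0 in P3, and spanned 2.43 to 18.9 CPM in the frail mice, with a median of 9.54. Every frail mouse was below every non-frail mouse, O3 by little, and the log2 fold change was -1.15 (SE 0.44) without and -1.0 (SE 0.47) with treatment (adjusted p = 0.887 and 0.999, edgeR). Unfolded protein response genes had 11 of 21, 7 of 21 and 5 of 21 above 0 (medians 0.01, -0.10 and -0.22), with Sdf2l1 at 60.1 to 172 CPM in the non-frail and 41.1 to 105 CPM in the frail mice, log2 fold change -0.70 (SE 0.35), and Edem1 at 168 to 249 CPM in the non-frail and 133 to 232 CPM in the frail mice, log2 fold change -0.33 (SE 0.23), both of the endoplasmic reticulum. Heat shock genes had 6 of 13, 5 of 13 and 6 of 12 (medians -0.01, -0.01 and -0.02), with the chaperonin Hspe1 at 56.9 to 90.6 CPM in the non-frail and 31.2 to 67.1 CPM in the frail mice, log2 fold change -0.37 (SE 0.24), and Dnaja1 at 94.3 to 132 CPM in the non-frail and 43.0 to 130.2 CPM in the frail mice, log2 fold change -0.33 (SE 0.29). Autophagy and lysosome genes had 10 of 20, 10 of 20 and 9 of 20 above 0 (medians 0.00079, -0.0019 and -0.06), with Gabarapl1 at 141 to 253 CPM in the non-frail and 180.3 to 407 CPM in the frail mice, log2 fold change 0.47 (SE 0.33), and the cathepsin Ctsz at 375 to 510.4 CPM in the non-frail and 265 to 402 CPM in the frail mice, log2 fold change -0.25 (SE 0.20).

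Acute phase genes, whose products the liver secretes in inflammation, had 11 of 27, 8 of 27 and 5 of 27 values above 0 (medians -0.24, -0.15 and -0.29). Their summed CPM spanned 46144 to 127315 in the non-frail and 33546 to 145562 in the frail mice, so that the groups overlapped. Il1rn, the antagonist of the interleukin 1 receptor, was at 2.32 CPM in O1, 3.84 in P1, 5.51 in P2 and 7.67 in P3, and spanned 3.10 to 15.6 CPM in the frail mice, with a median of 8.34. O4 alone of the frail mice lay inside the non-frail range, and the log2 fold change was 0.97 (SE 0.44) without and 1.10 (SE 0.55) with treatment. Cp, ceruloplasmin, was at 2135 to 4318 CPM in the non-frail and 1516 to 3484 CPM in the frail mice, log2 fold change -0.59 (SE 0.36). Cytokine and chemokine genes had 19 of 21, 16 of 21 and 5 of 19 above 0 (medians 0.58, 0.24 and -0.21), with the chemokines Cxcl1 at 38.4 to 129 CPM in the non-frail and 24.7 to 86.3 CPM in the frail mice, log2 fold change -0.67 (SE 0.41), and Ccl2 at 1.71 to 3.82 CPM in the non-frail and 2.95 to 26.1 CPM in the frail mice, log2 fold change 1.08 (SE 0.87). Interferon-stimulated genes had 13 of 26, 24 of 26 and 18 of 26 above 0 (medians -0.0026, 0.30 and 0.20), with Rsad2 at 4.99 to 17.4 CPM in the non-frail and 7.04 to 23.6 CPM in the frail mice, log2 fold change 0.60 (SE 0.48), and Mx1 at 1.58 to 4.30 CPM in the non-frail and 0.411 to 9.70 CPM in the frail mice, log2 fold change 0.82 (SE 0.79).

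Circadian clock and output genes had 16 of 19, 12 of 19 and 12 of 19 values above 0 (medians 0.48, 0.32 and 0.07), with Nr1d1, the repressor REV-ERB alpha, at 12.8 to 86.5 CPM in the non-frail and 19.9 to 178 CPM in the frail mice, log2 fold change 1.34 (SE 0.84), and its fellow clock output Tef at 21.3 to 30.4 CPM in the non-frail and 21.1 to 219 CPM in the frail mice, log2 fold change 1.08 (SE 0.71). Tef was highest in O5, and the summed CPM of the list was 1425 in O5 and 458 to 862 in the other mice. The time of day at which each liver was taken is not known. Genes of the growth hormone axis had 5 of 15, 5 of 15 and 7 of 15 above 0 (medians -0.07, -0.17 and -0.06). Ghr, the growth hormone receptor, was at 1338 CPM in O1, 716 in P1, 313 in P2 and 242 in P3, and spanned 44.0 to 381 CPM in the frail mice, with a median of 352. O1 stood above the other 9 mice and O5 below them, and the log2 fold change was -1.26 (SE 0.64). Igfbp4 was at 1492 to 2804 CPM in the non-frail and 655 to 1891 CPM in the frail mice, log2 fold change -0.64 (SE 0.36). Hepatokine genes had 5 of 18, 5 of 18 and 6 of 18 above 0 (medians -0.24, -0.30 and -0.17). Inhbb, a subunit of activin and inhibin, was at 25.4 CPM in O1, 12.3 in P1, 14.5 in P2 and 6.76 in P3, and spanned 3.03 to 16.1 CPM in the frail mice, with a median of 5.29. O5 was highest among the frail mice, only O5 and P5 were above P3, and the log2 fold change was -1.07 (SE 0.46) without and -1.24 (SE 0.47) with treatment. Ahsg, fetuin A, was at 12099.9 to 16775 CPM in the non-frail and 6008 to 15062 CPM in the frail mice, log2 fold change -0.45 (SE 0.36). Genes of gluconeogenesis and glycolysis had 15 of 23, 15 of 23 and 13 of 23 above 0 (medians 0.08, 0.13 and 0.15), with Irs2, an insulin receptor substrate, at 26.6 to 31.0 CPM in the non-frail and 29.3 to 168 CPM in the frail mice, log2 fold change 0.64 (SE 0.54), and the enolase Eno1 at 129 to 167 CPM in the non-frail and 108 to 141 CPM in the frail mice, log2 fold change -0.18 (SE 0.15).

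The frailty labels were also used as numbers in place of groups. With the number of positive criteria as a continuous variable, edgeR called 0 genes without treatment and 0 with it, with 759 and 367 at an unadjusted p under 0.05. With the frailty index it called 1263 genes without treatment, 1063 rising and 200 falling with the index, and 0 with treatment, where 4051 had an unadjusted p under 0.05. These calls rested on 1 mouse: in 1262 of the 1263 genes (99.9%) O5, whose index was 0.56, was the highest or lowest of the 10 mice, as it was in 60.7% of all tested genes. Without O5 the same fit called 0 genes, with 589 at an unadjusted p under 0.05. Of the 1263 genes, 83 had an unadjusted p under 0.05 without O5 and 935 kept the sign of their slope.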

How the data were processed

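Poly(A)-selected, strand-specific libraries of liver RNA, 1 per mouse, were sequenced as paired ends. The authors aligned reads to mm10 with STAR (version 2.6.0c). They counted uniquely aligned read pairs for each Ensembl gene with featureCounts (Subread 1.6.2), and these deposited counts carry no normalization. A second deposited table holds log2-scale values that the authors derived from the counts by a variance stabilizing transformation (DESeq2 version 1.23.10), used here only for an alternative of the principal components. Of 55450 gene IDs, 55104 received a symbol and coordinates from GENCODE M21 of GRCm38, the assembly that mm10 names.

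The 10 older mice were fitted alone with edgeR (version 4.0.16, R 4.3.3): filterByExpr by frailty group (minimum count 10, minimum total 15), TMM factors, quasi-likelihood tests and Benjamini-Hochberg adjustment over all 15744 tested genes, with a threshold of 0.05. Log2 CPM used a prior count of 2. Single values per mouse were compared by exact two-sided permutation tests over 210 assignments of the mice, or 50 within treatment, in scipy (version 1.17.1). DESeq2 (version 1.42.0) and limma (version 3.58.1) gave alternatives, beside other normalizations, filters, group definitions and sets of mice, and a block on the number in the mouse's name, although same-numbered mice are different animals. The fits were tested on simulated data that gave a gene the same spread in both groups, unlike the wider spread of the frail mice. No result given here rests on that simulation.

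The groups, the 38 gene lists and the alternatives were chosen with earlier results of these data known. Named genes are the 8 of smallest p in each direction of each of the 2 fits at a mean level of log2 CPM 1 or more, the 4 in each direction without O2 and O5, the 3 of smallest interaction p, and the 2 members of each list of smallest p with treatment in the model. Segment genes of antigen receptors and genes named only by an ID were passed over, those chosen after their values were seen are marked, and 1 gene that the rule names is not reported here. Euthanasia batches and times of day of single mice are not given in the sources used here.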

Additional observations from a re-analysis of the deposited data

Results flagged for a closer look

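In 24 of 220 groups of values a single mouse lay far from the others of its group by Dixon's test, at a level of 5% for each group. The groups come from the same mice and are not independent. Mug-ps1, Zfp707, Gpx3 and Nudt18 were named from the fit without O2 and O5, which favours genes where those mice lie apart. The share of flagged groups is therefore not set against chance. In the frail group O5 was the mouse apart 10 times and O2 7 times. O5 stood apart on the first principal component, at 154, and O2 on the second, at 105, and by its number of genes with at least 10 counts, 16601. Of the named genes, O5 was alone in Dgcr8 at 23.6 CPM, Mug-ps1 at 7.07 CPM, Gpx3 at 113 CPM, Nudt18 at 70.4 CPM, Slc40a1 at 37.8 CPM, Cidec at 19.3 CPM, Plin4 at 39.7 CPM, Me1 at 26.2 CPM and Sult5a1 at 0.898 CPM. O2 was alone in Fan1 at 4.08 CPM, Zfp707 at 17.0 CPM, Eomes at 6.95 CPM, Cdc20 at 7.58 CPM and Ccl2 at 26.1 CPM, and O3 in Ctsz at 265 CPM. In the non-frail group P3 was apart in Cp at 2135 CPM, Cldn7 at 1.22 CPM and Abcc3 at 183 CPM, P2 in Plpp1 at 21.2 CPM and Hal at 460.4 CPM, and O1 in Cd22 at 3.37 CPM. The cause of these distances was not tested.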

How the results depend on the processing

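With each of the alternatives run for it, edgeR called 0 genes without treatment, with treatment and for the interaction: other normalizations and low-count filters, all 15 mice in 1 fit, 1 treatment only, frail against robust mice, the number of criteria, without O3, O4 and P5 (the mice with pancreas genes), and without each mouse in turn (0 to 0 in each of the 3, with 244 to 744, 87 to 403 and 135 to 797 genes at an unadjusted p under 0.05). The exception was the frailty index. The counts at an adjusted p that moved were DESeq2 without treatment (4), DESeq2 without O2 and O5 (38 without and 16 with treatment) and the frailty index without treatment (1263, or 0 without O5). Counts at an unadjusted p under 0.05 moved from 534 without treatment to 1089 with no filter, 1112 with all 15 mice, 962 without O2 and O5 (DESeq2 1001), 1174 without O3, O4 and P5, 156 in vehicle mice, 4892 with the frailty index and 886 with the number of criteria without O2 and O5. With treatment they moved from 204 to 484 with no filter, 492 with all 15 mice, 725 without O2 and O5 (DESeq2 772), 367 with the number of criteria (820 without O2 and O5) and 4051 with the frailty index (356 without O5). For the interaction they moved from 276 to 509 with DESeq2 and 492 with no filter. Exact p over single mice left out ran from 0.0159 to 0.667 on the first and from 0.0476 to 0.905 on the second component of the remaining mice. Of 2290 recomputed values of 105 named genes, each in the 1 fit that named it (for Bmp7 and Trim7 that with treatment), 2240 kept direction and side of the threshold, 12 passed it (all by DESeq2 without O2 and O5) and 38 changed sign.

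Same-numbered mice share only a number, and with the replicate block edgeR called 0 genes, with 270 and 445 at an unadjusted p under 0.05. Log2 fold changes that changed sign under the block were Zfp707 (-0.0051), Slc40a1 (0.52), Cd79a (2.85), Acta2 (-0.65), Des (-0.59), Krt19 (-1.03), Cldn7 (-0.65), Gpr182 (0.18), Cidec (-1.31), Plin4 (-1.59), Ghr (0.27), Cyp7b1 (0.30), Fdps (0.0096), Nsdhl (0.0014), Irs2 (-0.84), Dnaja1 (0.00045), Gadd45a (0.13), Plk2 (0.0077), Hal (-0.030), Sult5a1 (0.98) and Sult1c2 (0.30). Without O3, O4 and P5 those of Nudt18 (0.13), Cd79a (0.042) and Cela2a (-0.89) did, against robust mice only (without P2 and P3) Marco (0.15) and Ighg2c (1.08), and without O2 and O5 Plin4 (-0.093, DESeq2 -0.095). With single mice left out, those that crossed 0 spanned -2.06 to 0.22 in Marco, -0.27 to 0.83 in Cd22, -1.63 to 0.066 in Cd79a, -0.89 to 0.036 in Asgr1, -0.43 to 1.36 in Plin4, -0.85 to 0.16 in Plk2, -0.080 to 1.29 in H2-DMb1 and -0.78 to 0.013 in Gstp1. The cause was not tested. The non-frail group held 4 mice, 1 of them on vehicle. Listed genes under about 1 CPM rest on few counts.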

Other observations

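The frail mice O5 and O2 held values far from the other 8 mice in further genes. The genes of this paragraph were chosen after their values were seen and belong to no comparison. In O5, the mouse of the highest frailty index, Car3, a carbonic anhydrase abundant in liver and fat, was at 0.0374 CPM, against 157 to 1598 CPM in the other 9 mice. Cdkn1a, the cell cycle inhibitor p21, was at 143 CPM in O5 and 4.81 to 61.6 CPM in the others. In O2, the frail mouse of the lowest index, Cd3e, a chain of the T cell receptor complex, was at 7.20 CPM, against 0.262 to 2.97 CPM in the other 9 mice. Summed CPM of autophagy and lysosome genes was 11747 in O5 and 4794 to 5668 in the others, and that of cytokine and chemokine genes was 1723 in O2, 729 in O5 and 269 to 507 in the other 8.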
